A study of Mus musculus with 2 samples.

Results

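2610528A11Rik and 2200002D01Rik are 2 of the 19294 genes in a Drop-seq count matrix of mouse colon crypt cells. They were chosen by their measured values, as genes still known by Riken names that are high in the absorptive precursors of these same cells. Their levels across the cell clusters are therefore a description and carry no test.

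Crypts were isolated from the colon of C57BL/6 mice of 4 to 10 months that carried Tcf4 GfpCre/+ and RosamTmG/+ and had no pretreatment. The Cre allele is a knock-in at Tcf4, so that every mouse was heterozygous for Tcf4, and no mouse with both Tcf4 alleles intact was profiled by Drop-seq. The RosamTmG reporter switches from a red to a green membrane protein where Cre has been active, and the sorted populations were Tcf4 Lin- cells, in which it had not switched, and a MIX population that the labels call DP. The labels describe 2 libraries, of pooled samples 1 to 3 and of pooled samples 4 to 6, and human cells had been added to the mouse cells to reach the concentration needed. The suffix of a barcode, X1 or X2, could not be matched to a pool or a sort, so all barcodes were treated as 1 sample without replicates. The sets X1 and X2 shared 0 barcodes.

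The matrix held 1117 barcodes, with counts of unique molecular identifiers (UMIs), each of which stands for 1 captured transcript. The authors' supplementary list of cluster assignments placed 516 barcodes in 4 clusters, of natural and induced intraepithelial lymphocytes (nIELs and iIELs), B cells and epithelial Pigr+ cells. A second list divided 106 of these barcodes into 3 epithelial subclusters, with 42 absorptive precursors, 32 secretory precursors and 32 stem cells. The subclusters held 151780, 128664 and 69046 UMIs, with a median per cell of 1939.5, 1820.5 and 995.5. Of the 106 cells, 14 were labelled as IELs in the list of all cells, 5 of them absorptive precursors. Some barcodes differ from another of their set at 1 base, and joining these would leave 92 epithelial cells.

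2610528A11Rik encodes a small secreted cationic protein, also called GPR15L, that is a ligand of GPR15. GPR15 is a G protein-coupled receptor that guides T lymphocytes to the large intestine, and the ligand is made by epithelia that face the outside, among them the colon and the skin. 2200002D01Rik, also called H2RSP or IMUP, encodes a small nuclear protein and lies beside Spint2, the gene of a membrane-bound inhibitor of serine proteases such as matriptase. Absorptive cells of the colon take up water, salt and short-chain fatty acids and mature as they move from the crypt to the surface.

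In GENCODE M21 on GRCm38, 2610528A11Rik (ENSMUSG00000096001.2) spans chr14:37102140-37114022 on the minus strand. Its coding transcript runs from 37110101 down to 37102142, with 3 exons, 234 coding bases and a 3′ UTR of 467 bases. 2200002D01Rik (ENSMUSG00000030587.5) spans chr7:29246561-29248466 on the minus strand, with 4 exons, 342 coding bases and a 3′ UTR of 1036 bases. Drop-seq primes on the polyadenylated end of transcripts, which lies in the last exon of each gene. In GENCODE the last exon of 2200002D01Rik overlaps the end of Yif1b, on the opposite strand, by 1037 bases. RefSeq ends 2200002D01Rik at 29247521 and not at 29246561, which gives a shorter overlap with Yif1b, whose end is at 29247597. The sources used here do not say whether strand was used in counting, so UMIs of the pair cannot be told apart where they overlap. The counts given to Yif1b were low, with 3 UMIs in the absorptive, 5 in the secretory and 1 in the stem cell subcluster.

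The 250 bases before the start of each gene, from RefSeq on GRCm38.p6, are shown because both genes were high in the same subcluster, and both genes were matched. The window of 2610528A11Rik (chr14:37110102-37110351, minus strand) lies within an intron of its longer, noncoding transcript, and that of 2200002D01Rik (chr7:29248468-29248717, minus strand) lies between the gene and Spint2. Capitals mark the matches to the motifs searched, which were chosen after the sequences had been seen; the HNF4 letters were shortened to 7 fixed bases after a first search.
2610528A11Rik: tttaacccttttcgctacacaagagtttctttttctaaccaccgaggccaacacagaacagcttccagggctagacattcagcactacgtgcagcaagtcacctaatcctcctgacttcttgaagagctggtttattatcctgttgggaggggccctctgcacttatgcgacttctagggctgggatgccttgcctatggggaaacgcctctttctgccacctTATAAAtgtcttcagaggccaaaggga
2200002D01Rik: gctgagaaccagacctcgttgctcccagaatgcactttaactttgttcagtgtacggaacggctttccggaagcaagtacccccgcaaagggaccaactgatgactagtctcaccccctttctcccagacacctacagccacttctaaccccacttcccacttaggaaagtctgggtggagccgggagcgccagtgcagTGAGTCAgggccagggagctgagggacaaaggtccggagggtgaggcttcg

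The window of 2610528A11Rik held 1 TATA box (TATAAA), from 27 to 22 bases before the start, a motif found on either strand in 12.4% of the same windows of 32851 RefSeq genes. The window of 2200002D01Rik held no TATAAA and 1 AP-1 motif (TGANTCA), from 51 to 45 bases before the start, found in 6.75% of all windows. On either strand, neither window held the letters TTTATNG of CDX2, found in 9.81% of all windows, or CAAAGNNCA of HNF4, found in 5.49%. Neither held ATCAAAG of TCF7L2 (3.21%), AGATAA of the GATA factors (9.99%) or GGGNGTGG of the KLF factors (15.9%), which says only that these letters are not in these windows. No motif searched was therefore shared by both windows. GC content was 49.2% for 2610528A11Rik and 57.2% for 2200002D01Rik, beside a median of 52.4% over all windows.

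2610528A11Rik was highest in absorptive precursors, with 125 UMIs at 824 UMIs per 1000000 (CPM; exact Poisson 95% interval 686 to 981). Single absorptive precursors held between 0 and 30 UMIs with a median of 1, or between 0 and 28.6 with a median of 5.82 per 10000 UMIs of the cell. Stem cells had 7 UMIs at 101 CPM (40.8 to 209), with at most 2 in a cell, and secretory precursors had 11 at 85.5 CPM (42.7 to 153), with at most 4 in a cell. The median cell of both other subclusters held 0 UMIs, and their intervals overlapped each other and lay below that of the absorptive precursors. Intervals of levels, folds and ratios use UMIs summed over cells and cover counting error only, not the spread between cells. Whether such intervals overlap therefore says nothing about that spread. No interval given here covers differences between mice.

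2200002D01Rik followed the same order at a higher level. Absorptive precursors held 279 UMIs at 1838 CPM (1629 to 2067), from 0 to 54 in a cell (median 3), or from 0 to 136 per 10000 UMIs (median 12.7). Stem cells held 20 UMIs at 290 CPM (177 to 447) and secretory precursors 27 at 210 CPM (138 to 305), again with intervals that overlapped each other and not that of the absorptive precursors. In the secretory precursors, 23 of the 27 UMIs lay in 1 cell of 12713 UMIs, which also held 4 of the 11 UMIs of 2610528A11Rik. That cell carried RNAs of both lineages, with 100 UMIs of the goblet cell mucin Muc2 and 24 of the absorptive precursor gene Lgals3. Without it the secretory precursors were at 34.5 CPM (9.40 to 88.3) for 2200002D01Rik and 60.4 CPM (24.3 to 124) for 2610528A11Rik, and the interval of the stem cells then lay above that of the secretory precursors for 2200002D01Rik alone. That choice lowers the secretory value, since the cell was picked for its UMIs of this gene and no stem cell was left out.

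**Figure D1:**
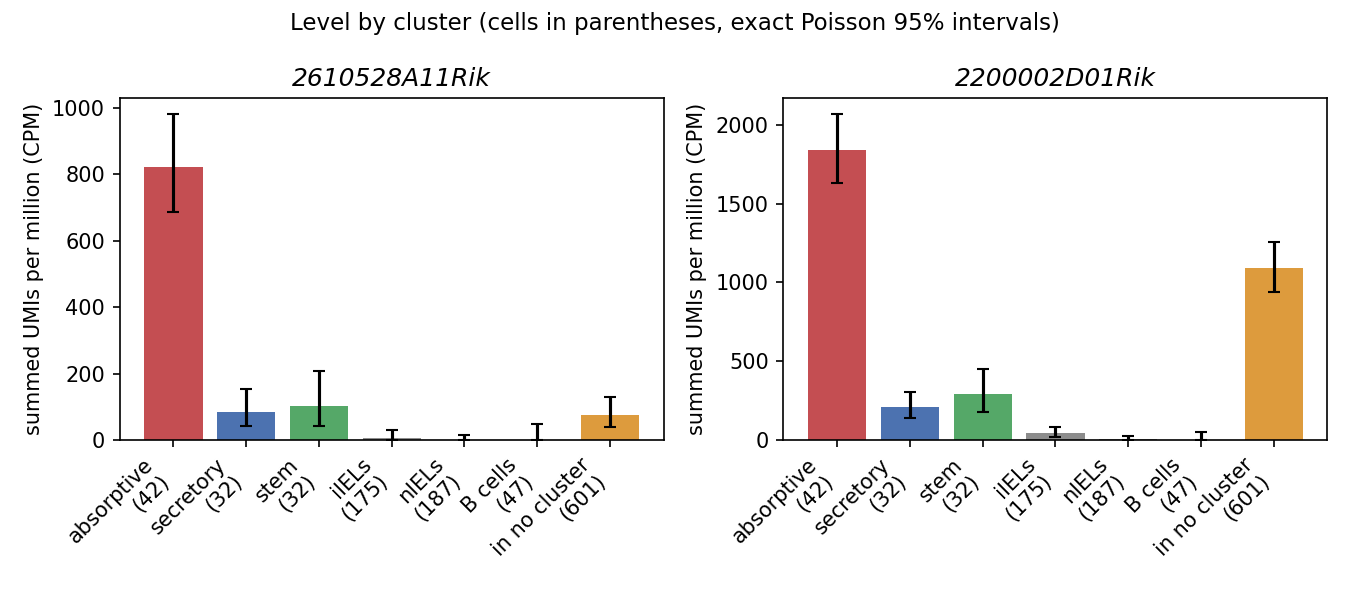
Summed UMIs per 1000000 of each gene (vertical axes, which differ in scale) in the 3 epithelial subclusters, in iIELs, nIELs and B cells outside the subclusters and in barcodes in no cluster, with cell numbers in parentheses and exact Poisson 95% intervals. Absorptive precursors have the highest bar for both genes, at 824 and 1838 CPM, and barcodes in no cluster stand at 1089 CPM for 2200002D01Rik and at 75.7 CPM for 2610528A11Rik.

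Over the other 64 epithelial cells together, 2610528A11Rik was 9.05-fold higher in absorptive precursors (exact binomial interval 5.50 to 15.8) and 2200002D01Rik 7.73-fold higher (5.66 to 10.8). Without the secretory precursor of 12713 UMIs, which held 23 of the 47 UMIs of 2200002D01Rik in those 64 cells, the folds were 10.9 (6.25 to 20.5) and 14.2 (9.33 to 22.5). Among the 3003 genes with at least 20 UMIs in at least 10 epithelial cells, 388 (12.9%) were at least 2-fold higher in absorptive precursors and 377 (12.6%) were at 0.5-fold or lower, with a median fold of 1.09. Both genes were among the 388, which their choice fixed, and they ranked 12 and 20 by fold. Absorptive precursors held 87.4% of the epithelial UMIs of 2610528A11Rik and 85.6% of those of 2200002D01Rik. For every UMI of 2610528A11Rik there were 2.23 of 2200002D01Rik in absorptive precursors (1.80 to 2.78) and 2.61 in the other epithelial cells (1.49 to 4.78), and 1.71 in those (0.852 to 3.58) without the secretory precursor of 12713 UMIs, so no difference in this ratio was detectable at this depth.

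**Figure D2:**
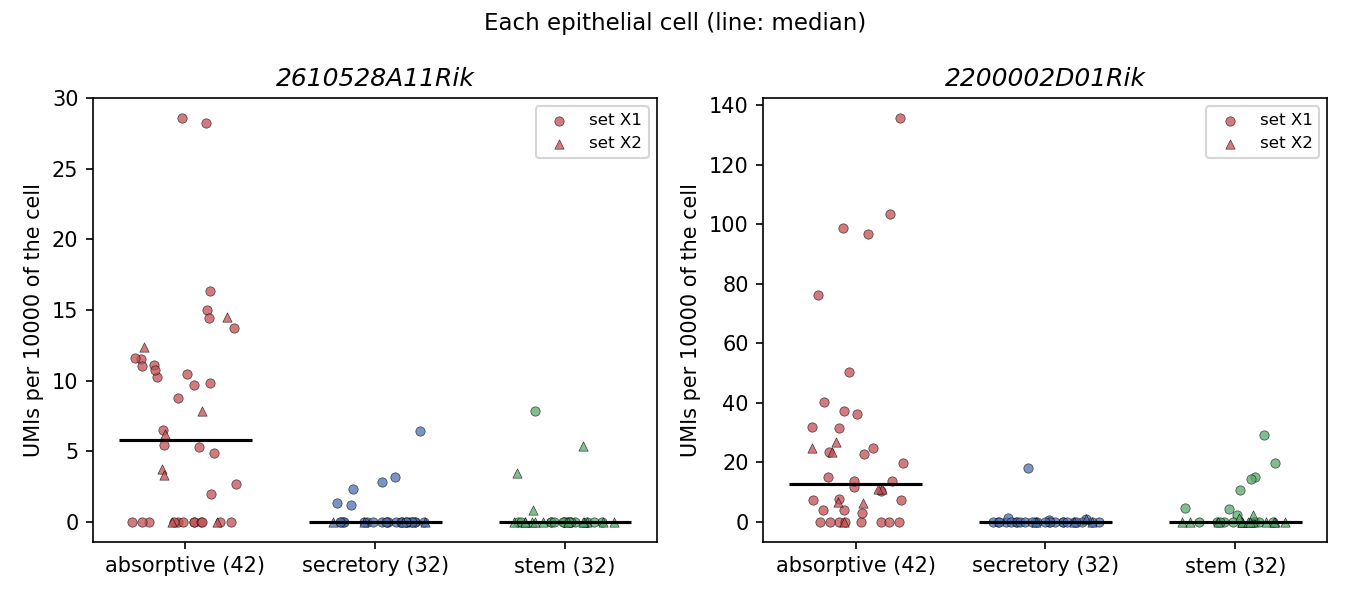
UMIs of each gene per 10000 UMIs of the cell (vertical axes, which differ in scale) for every epithelial cell, by subcluster and barcode set (circles X1, triangles X2), with a line at the median. Absorptive precursors spread from 0 to 28.6 for 2610528A11Rik and from 0 to 136 for 2200002D01Rik, and the medians of the other subclusters are 0.

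A UMI of 2610528A11Rik was found in 28 of 42 absorptive precursors (66.7%, Clopper-Pearson 95% interval 50.5% to 80.4%). The number was 6 of 32 for secretory precursors (18.8%) and 4 of 32 for stem cells (12.5%). A UMI of 2200002D01Rik was found in 33 absorptive precursors (78.6%, 63.2% to 89.7%), 5 secretory precursors (15.6%) and 10 stem cells (31.2%). IELs, which should lack both genes, were taken as a measure of free RNA in these droplets. Of 362 IELs outside the subclusters, 1 (0.276%) held a UMI of 2610528A11Rik and 4 (1.10%) held one of 2200002D01Rik, at a median depth of 1038 UMIs. Among them, 1 barcode of 795 UMIs held that UMI of 2610528A11Rik and 6 of the 9 UMIs of 2200002D01Rik. It also held 8 UMIs of Pigr and 0 of Cd3d, Cd3e, Cd3g, Ptprc and Cd7, so these IEL values need not be free RNA alone. Shares in all 3 subclusters were above that level for both genes. For 2200002D01Rik in secretory precursors this is not firm, since without the cell of 12713 UMIs their 34.5 CPM (9.40 to 88.3) overlapped that of these IELs, 21.2 CPM (9.68 to 40.2). This IEL level keeps the barcode of 795 UMIs. The nIELs outside the subclusters, which do not include that barcode, were at 4.17 CPM (0.105 to 23.2), and this interval overlapped as well. With each cell thinned to 800 UMIs, which left out 6, 3 and 9 shallower cells of the subclusters and 98 IELs, the share for 2610528A11Rik was 44.2% for absorptive precursors, 3.97% for secretory precursors, 5.04% for stem cells and 0% for IELs. For 2200002D01Rik the thinned shares were 60.9%, 3.45%, 21% and 0.473%, but the stem cell level of this gene lay mostly in set X1, with UMIs in 8 of 17 stem cells there and in 2 of 15 of set X2.

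In the 4 clusters of the list of all cells, where the IELs include the 14 cells also found in the subclusters, epithelial Pigr+ cells had 354 CPM of 2610528A11Rik (284 to 437) and 914 CPM of 2200002D01Rik (799 to 1041). The iIELs came next, with 197 CPM (149 to 256) and 377 CPM (309 to 455). This level rested on the 11 iIEL-labelled cells that the second list placed in the epithelial subclusters, which held 55 of the 56 UMIs of 2610528A11Rik and 99 of the 107 UMIs of 2200002D01Rik. In the other 175 iIELs the levels were 5.40 CPM (0.137 to 30.1) and 43.2 CPM (18.7 to 85.1). These rested largely on the barcode of 795 UMIs without T lymphocyte genes, which held the 1 UMI of 2610528A11Rik and 6 of the 8 UMIs of 2200002D01Rik. The nIELs outside the subclusters had 0 UMIs of 2610528A11Rik, which allows up to 12.5 CPM, and 1 UMI of 2200002D01Rik. The 47 B cells had 0 UMIs of either gene, which allows up to 39.1 CPM.

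Both genes were highest in absorptive precursors within each barcode set. In set X1, 2610528A11Rik was at 863 CPM in 34 absorptive precursors (709 to 1041), 103 CPM in 28 secretory precursors and 77.9 CPM in 17 stem cells. In set X2 it was at 628 CPM in 8 absorptive precursors (359 to 1020), 115 CPM in 15 stem cells and 0 UMIs in 4 secretory precursors, which allows up to 135 CPM. 2200002D01Rik was at 1932 CPM in absorptive precursors of X1 (1697 to 2190) and at 1374 CPM in those of X2 (957 to 1911). The sets therefore overlapped in their intervals for absorptive precursors, for both genes. They did not for 2200002D01Rik in stem cells, at 623 CPM in X1 (356 to 1011) and 92.3 CPM in X2 (25.1 to 236), and secretory precursors were at 244 CPM (160 to 358) and, from 1 UMI, at 44.9 CPM. The first of these rests on the secretory precursor of 12713 UMIs, and without it secretory precursors of X1 held 3 UMIs, with an interval from 6.60 to 93.6 CPM. The fold of the gene over the other epithelial cells was 18.0 in X2 and 6.07 in X1, or 12.1 in X1 without that cell. In X2, 1 stem cell held 23205 of the 43357 stem cell UMIs and 3 of the 4 UMIs of the gene there. Neither the X2 stem cell level nor the X2 fold was computed without it.

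The absorptive label was set beside marker lists, although the subclusters were named from such genes in these same cells. All 6 absorptive markers were detected in absorptive precursors, at a summed 6727 CPM with Car2 the most abundant (270 UMIs), against 1360 CPM in secretory precursors and 1419 CPM in stem cells. The 9 secretory markers summed to 6061 CPM in absorptive precursors, led by Tff3 with 218 UMIs in 7 cells, and to 69312 CPM in secretory precursors. Of the markers with the most UMIs, Fcgbp and Clca1 were in 8 absorptive precursors each, Muc2 in 6 and Agr2 in 16, and Tff3 was at a fold of 1.39. Of the 8 T lymphocyte markers, 5 were detected in absorptive precursors at a summed 145 CPM, led by Ccl5 with 11 UMIs, with Cd3e, Cd8a and Gzmb at 0, against 31913 CPM in iIELs. The 6 B lymphocyte markers summed to 231 CPM, led by Cd74 with 31 UMIs, with Cd79a and Cd79b at 0, and the 3 stromal and 3 tuft markers were at 0.

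Since both genes were chosen as high in the same subcluster, their being found together more often than independence over all epithelial cells gives was fixed by that choice. Of 106 cells, 29 held UMIs of both, 9 of 2610528A11Rik alone, 19 of 2200002D01Rik alone and 49 of neither. Independent detection gives 17.2 cells with both, a ratio of 1.69. Independence within each subcluster gives 24.2 cells and a ratio of 1.20. Within absorptive precursors 24 cells held both, against 22 under independence, a ratio of 1.09 (0.782 to 1.38). With 28 and 33 of the 42 cells holding the genes, any possible count would have given an interval that spans 1. This ratio therefore cannot decide whether the genes were found together more or less often there.

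Depth moved with co-detection among absorptive precursors. The 24 cells with both genes had a median of 2952.5 UMIs, the 9 with 2200002D01Rik alone 1305, the 4 with 2610528A11Rik alone 2308.5 and the 5 with neither 1219, and the part of depth in the pattern was not tested. Of the 24 cells, 16 held more UMIs of 2200002D01Rik, 5 held more of 2610528A11Rik and 3 held equal numbers. The deepest pair of absorptive precursors, both labelled iIELs in the list of all cells, held 36.0% of the UMIs of 2610528A11Rik and 24.7% of those of 2200002D01Rik. The genes stood in opposite order in these cells: the cell of 23171 UMIs held 15 UMIs of 2610528A11Rik and 54 of 2200002D01Rik, and the cell of 20826 UMIs held 30 and 15.

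**Figure D3:**
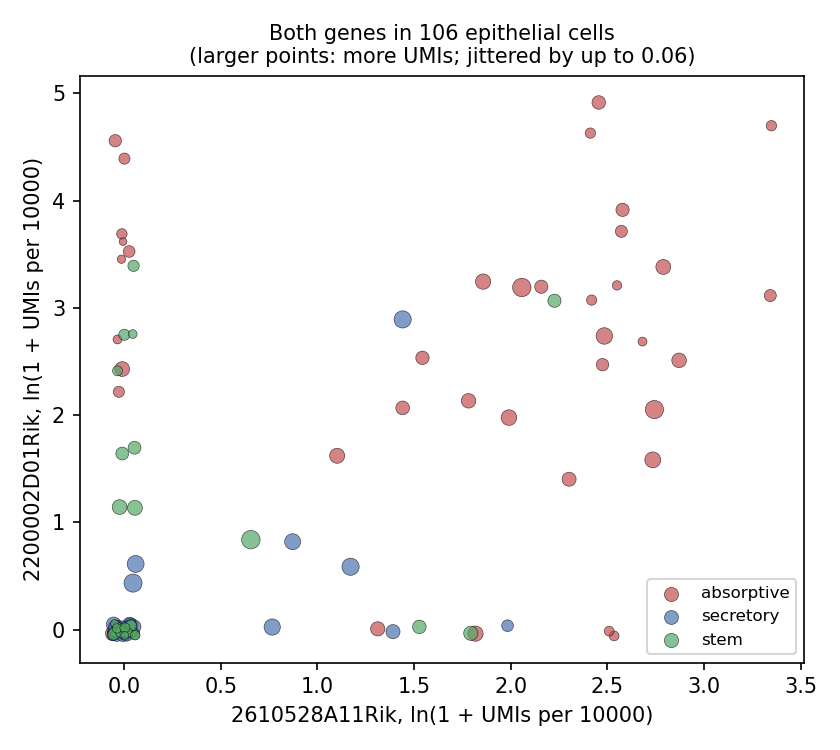
Level of 2610528A11Rik (horizontal) and 2200002D01Rik (vertical) as ln(1 + UMIs per 10000) in each of the 106 epithelial cells, coloured by subcluster, with larger points for deeper cells. Cells with both genes are mostly absorptive precursors (24 of 29), and 49 cells sit at 0 for both.

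The log-normalised levels of the genes had a Pearson correlation of 0.516 across the 106 cells, which differ in depth, subcluster and barcode set. The value for X1 alone was 0.459 and that for X2 alone 0.764. Within the 42 absorptive precursors r was 0.204, and within the other 64 cells 0.231. 2200002D01Rik ranked second in likeness to 2610528A11Rik among 3002 genes, and 2610528A11Rik ranked 12 in likeness to 2200002D01Rik, which their shared choice favours, and neither was among the first 10 of the other within absorptive precursors. The median gene had an r of 0.0725 with 2610528A11Rik and 0.0191 with 2200002D01Rik.

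The gene most like 2610528A11Rik was Gsdmc4 (r = 0.544), of the pore-forming gasdermin C family, followed by 2200002D01Rik. Next were Krt8 (0.497), a keratin of simple epithelia, and Lypd8 (0.487), a secreted protein that keeps flagellated bacteria away from the colon surface. The other 6 were Cox8a (0.487) and Ndufb8 (0.481), subunits of the respiratory chain, Casp1 (0.486), the inflammatory caspase, Mgst3 (0.484), a microsomal glutathione transferase, Hint1 (0.482), a nucleotide hydrolase, and Mrpl20 (0.473), of the mitochondrial ribosome. Within absorptive precursors r was between 0.382 and 0.502 for Krt8, Cox8a, Casp1, Mgst3, Hint1, Ndufb8 and Mrpl20, whereas Gsdmc4 (0.187) and Lypd8 (0.198) had a low one. The lowest r belonged to secretory products and surface genes, Reg4 (-0.373), Spink4 (-0.355), Cd24a (-0.350), Muc2 (-0.283) and Ccl6 (-0.268). These were between 0.0170 and -0.120 within absorptive precursors, where few cells held their UMIs.

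The genes most like 2200002D01Rik had higher correlations. Lgals3, which encodes galectin-3 and marks the absorptive branch, had an r of 0.758 across the 106 cells and 0.598 within absorptive precursors. Gsdmc4 (0.686) and Gsdmc2 (0.568) of the gasdermin C family were at 0.429 and 0.323 within absorptive precursors. Selenbp1 (0.671), a methanethiol oxidase, Aqp4 (0.590), a water channel, and Hao2 (0.586), a peroxisomal hydroxyacid oxidase, came next, with 0.570, 0.373 and 0.442 within absorptive precursors. The list ended with Prdx6 (0.584), a peroxiredoxin, Lypd8 (0.570), the membrane mucin Muc3 (0.563) and the carbonic anhydrase Car2 (0.560). Cd24a (-0.495), Spink4 (-0.479), Agr2 (-0.448), Muc2 (-0.427) and the glutathione peroxidase Gpx2 (-0.393) had the lowest r, and Gpx2 had -0.463 within absorptive precursors. Gsdmc4 and Lypd8 were the 2 genes among the first 10 for both Riken genes.

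**Figure D4:**
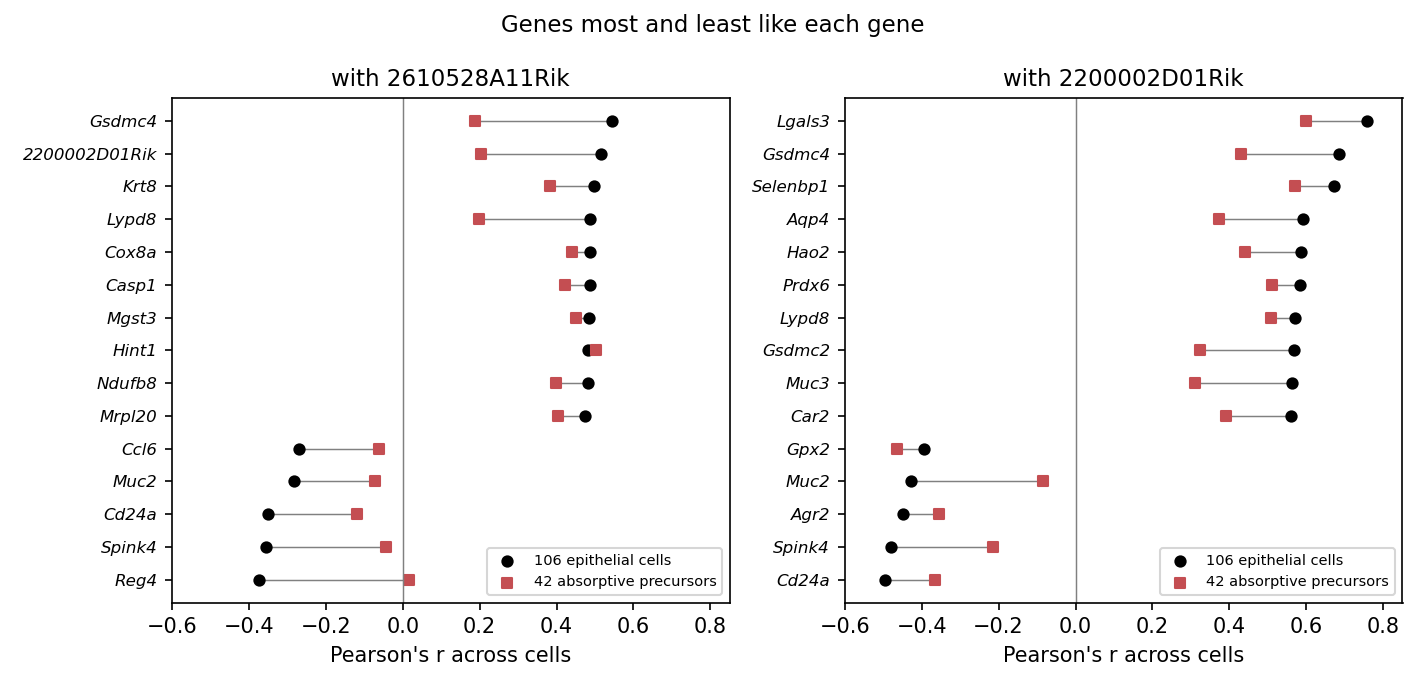
Pearson's r (horizontal) of the 10 most and 5 least like genes with each Riken gene, across 106 epithelial cells (black circles) and within 42 absorptive precursors (red squares). Lgals3 keeps an r of 0.598 with 2200002D01Rik within absorptive precursors, and Gsdmc4 has 0.187 there with 2610528A11Rik.

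Gpr15, the receptor of the 2610528A11Rik product, was too rare for a comparison, with 5 UMIs in iIELs and 1 in nIELs. It had 0 in the epithelial subclusters, which allows up to 8.58 CPM. There Ccl28, an epithelial chemokine of the mucosa, had 8 UMIs in the absorptive, 2 in the secretory and 6 in the stem cell subcluster. Of 14 genes of lymphocyte homing in the matrix, only the adhesion gene Cdh1, the epithelial partner of the IEL integrin Itgae, had enough epithelial UMIs to be compared, with a fold of 1.36 (0.874 to 2.13). Itgae had 46 UMIs in iIELs, 52 in nIELs and 0 in the epithelial subclusters. Cxcr6 and Ccr9, homing receptors of T lymphocytes, likewise had 0 epithelial UMIs. Cxcr6 had 52 UMIs in iIELs, 12 in nIELs and 5 in B cells. Ccr9 had 22, 17 and 12, at 119, 70.8 and 156 CPM.

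Spint2, the chromosomal neighbour of 2200002D01Rik, was spread over the epithelium. Its UMIs were 99 in the absorptive, 104 in the secretory and 36 in the stem cell subcluster, a fold of 0.921 (0.705 to 1.20). Among genes of matriptase, its inhibitors and its substrates, 0 of the 6 with enough UMIs reached a fold of 2 or of 0.5, beside 12.9% and 12.6% of all genes compared, with a median fold of 1.42. The related inhibitor Spint1 had a fold of 1.42 (0.763 to 2.66) and St14, which encodes matriptase, 1.30 (0.512 to 3.31). Epcam, which encodes an epithelial adhesion protein, and Cldn7, of its claudin partner, were the members whose fold intervals lay above 1, from 1.28 to 1.75 for Epcam. The next coding genes beside 2610528A11Rik were Cdhr1, with 1, 0 and 1 UMIs, and Ghitm, of the inner mitochondrial membrane, with 30, 25 and 10, so Spint2 and Ghitm had UMIs in all 3 subclusters.

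All 12 absorptive precursor genes with enough UMIs were at least 2-fold higher in absorptive precursors, with a median fold of 6.02, which the choice of that list fixes. They ran from Fabp2 (2.66), a fatty acid binding protein, to Hao2 (20.8). Krt20, a keratin of the same list that was too rare to be counted, had 16 UMIs in 3 of 42 absorptive precursors and 0 in the other subclusters. With 3 UMIs allowed for the 0 it was 6.95-fold higher. The exact binomial interval of 16 against 0 UMIs, which does not use that allowance, began at 5.02-fold. Of 12 genes of mature surface colonocytes, 4 had enough UMIs and 1 reached a fold of 2, beside 12.9% of all genes compared. This was Car1, a carbonic anhydrase of the colon, at 5.64 (2.69 to 13.3), and the median fold was 1.29. The membrane mucin Muc13 was at 1.40, Guca2a at 1.19 and the adhesion gene Ceacam1 at 0.927. The other 8 genes of this list were too rare to be compared. Among them the chloride exchanger gene Slc26a3 had 15 UMIs in 10 absorptive precursors, 4 in the secretory subcluster and 0 in stem cells, while the carbonic anhydrase Car4 and the water channel Aqp8 had 0 in absorptive precursors.

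Of 5 antimicrobial and barrier genes with enough UMIs, 2 reached a fold of 2 and 2 were at 0.5 or lower, beside 12.9% and 12.6% of all genes compared. Lypd8 (4.98; 3.91 to 6.40) and the protease inhibitor gene Wfdc2 (3.76; 2.54 to 5.69) were higher in absorptive precursors, and the antimicrobial protein genes Retnlb (0.0418) and Ang4 (0.0387) were lower. Retnlb had 598 UMIs in 21 secretory precursors and 399 in 3 stem cells. Zg16, a lectin that binds Gram-positive bacteria, had a fold of 1.08 that rested on few cells, with 344 UMIs in 6 cells of the absorptive subcluster, 413 in 5 of the secretory one and 0 in stem cells. Of 10 epithelial transcription factors with enough UMIs, 1 reached a fold of 2 and 1 was at 0.5 or lower, beside 12.9% and 12.6% of all genes compared. Tcf7l2, the gene the authors call Tcf4, had a fold of 2.08 (0.889 to 5.14) from 16, 8 and 2 UMIs, and Atoh1, of the secretory lineage, had 0.178 (0.0619 to 0.418). The interval of Tcf7l2 includes 1, and the mice carried Tcf7l2 in 1 intact copy. The median fold of this list was 1.37. Besides Tcf7l2, Hes1 (1.72, interval 1.16 to 2.57), Hnf4a (1.51), Cdx1 (1.45) and Klf4 (1.43) were above it. Hes1, a target of Notch signaling, was at 408 CPM in the absorptive, 420 CPM in the stem cell and 140 CPM in the secretory subcluster. Besides Atoh1, Elf3 (1.30), Vdr (1.13), Klf5 (1.01) and Cdx2 (0.886), a regulator of intestinal identity, were below the median.

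Over all absorptive precursors together, 2200002D01Rik moved with the share of UMIs from mitochondrial genes and 2610528A11Rik did not, although this did not hold in set X2. The difference between the genes was not tested. This share ran from 1.68% to 17.7% with a median of 7.86%. Its r across the 42 cells was 0.592 with 2200002D01Rik and 0.0458 with 2610528A11Rik. With totals that leave out mitochondrial genes, r was 0.604 and 0.0640. Ribosomal protein genes went the other way for 2200002D01Rik, with an r of -0.571 between their share and its level, against 0.00233 for 2610528A11Rik. Depth showed a further difference, since log depth had an r of 0.324 with 2610528A11Rik and -0.0355 with 2200002D01Rik.

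The relation of 2200002D01Rik with the mitochondrial share had an r of 0.618 in the 34 cells of set X1 and 0.466 in the 8 of X2. For 2610528A11Rik the sets differed in sign, with -0.0433 and 0.536. In the 21 absorptive precursors up to the median mitochondrial share, 2200002D01Rik had 109 UMIs in 13 cells, or 1114 per 1000000 nonmitochondrial UMIs. In the 21 above it the gene had 170 UMIs in 20 cells, or 3822. The deepest pair of cells, of 23171 and 20826 UMIs, lay below the median and held 54 and 15 of the 109 UMIs. The cells below and above were not matched in depth, and the part of depth was not tested. Lgals3 (981 and 1888), Selenbp1 (715 and 1596) and the guanylin gene Guca2a (388 and 2563), which encodes a peptide of mature colonocytes and goblet cells, were also higher above the median. 2610528A11Rik had 848 in 15 cells below and 944 in 13 cells above. Gsdmc4 was at 1614 and 1686 in the summed UMIs, but in 14 cells below and 20 above, and its mean over cells was 1340 and 2100. Krt20 had 0 UMIs below the median and 16 in 3 cells above it. The part of the mitochondrial share in the level of 2200002D01Rik was not tested.

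**Figure D5:**
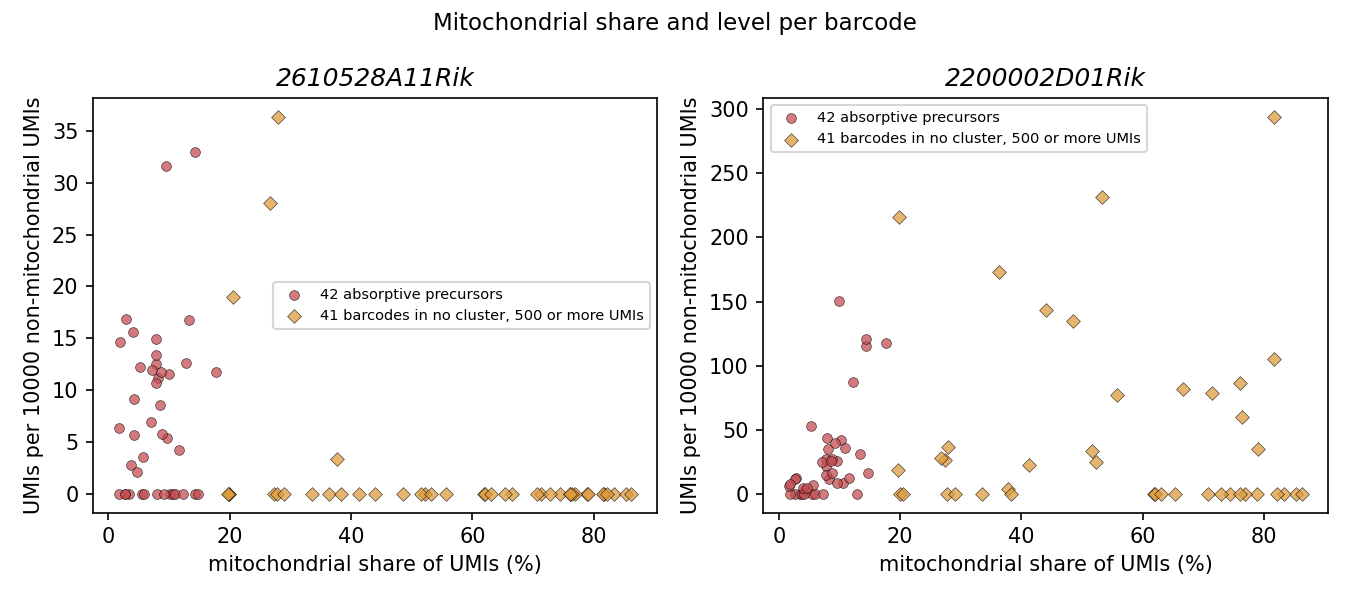
Mitochondrial share of UMIs (horizontal, in percent) and level per 10000 nonmitochondrial UMIs (vertical axes, which differ in scale) for 42 absorptive precursors (red circles) and 41 barcodes in no cluster with at least 500 UMIs (orange diamonds). The absorptive precursors end at 17.7% and the other barcodes begin at 19.7%, and 21 of these 41 hold 2200002D01Rik while 4 hold 2610528A11Rik.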

How the data were processed

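The counts were made by the authors with the Drop-seq tools, STAR 2.5.0 and Picard 1.137, on builds mm10 and hg19. They are whole numbers of UMIs, not normalized; the gene annotation and the strand setting behind them are not given in the sources used here. Cells were joined to the authors' clusters by barcode. Python 3.11.15, numpy 2.4.6, pandas 2.3.3, scipy 1.17.1 and matplotlib 3.10.9 were used.

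Levels were UMIs summed over cells per 1000000 (CPM) with exact Poisson 95% intervals. Folds had exact binomial intervals and shares Clopper-Pearson intervals, and 0 counts allow up to 3. Correlations were Pearson's r of ln(1 + 10000 x UMIs / total) without p-values, over genes with at least 20 UMIs in at least 10 of the 106 epithelial cells, and thinning used 100 draws. Doublets were not called. Fold intervals were also run on simulated data, whose outcome is not given here and is not relied on.

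The genes named were both Riken genes, the 10 with the highest and 5 with the lowest r with each, their annotation neighbours and 6 gene lists; members of marker lists and genes set beside the mitochondrial share were named after their values had been seen, as were single cells and the 4 barcodes left out of those in no cluster, and the depth of 500 UMIs was set then. The members and lists were chosen with earlier results of these data known. Alternatives changed the level, total, barcode set, cells, joining of barcodes, depth and correlation. Human cells, sorts and stainings were not used here.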

Additional observations from a re-analysis of the deposited data

Results flagged for a closer look

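Both genes gave UMIs in barcodes that the lists of clusters do not hold, above the limit that a count of 0 allows there (17.5 CPM), a limit that more than 3 UMIs of any gene pass. In IELs outside the subclusters they were at 2.35 CPM (0.0595 to 13.1) for 2610528A11Rik and 21.2 CPM (9.68 to 40.2) for 2200002D01Rik. Of these IEL UMIs, the only 1 of 2610528A11Rik and 6 of the 9 of 2200002D01Rik lay in 1 barcode of 795 UMIs. 2200002D01Rik had 187 UMIs in 69 of these 601 barcodes, at 1089 CPM (938 to 1257), and 2610528A11Rik had 13 UMIs in 8 of them, at 75.7 CPM (40.3 to 129). All of these UMIs were in set X1, where 588 of the 601 barcodes lie.

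Summed over the 601 barcodes, the genes stood in another ratio there than in all absorptive precursors together. There were 14.4 UMIs of 2200002D01Rik for each of 2610528A11Rik (8.21 to 27.5), against 2.23 in absorptive precursors (1.80 to 2.78), and the intervals do not overlap. Without the 4 barcodes with the most UMIs of 2200002D01Rik, the ratio was 7.92 (4.43 to 15.4), which that choice lowers. Of the 601 barcodes, 41 had at least 500 UMIs, with a mitochondrial share from 19.7% to 86.2% and a median of 61.8%, beside a median of 2.64% and a highest value of 19.7% in assigned cells. In these 41, 2200002D01Rik had 119 UMIs, 84 of them in those 4 barcodes, and 20 held none. Its level was 5452 per 1000000 nonmitochondrial UMIs (4517 to 6524) with the 4 barcodes and 2011 (1401 to 2797) in the other 37, against 1960 (1737 to 2204) in absorptive precursors, so that the excess rested on 4 barcodes. Absorptive precursors without their own 4 cells with the most UMIs of the gene were at 1581 (1340 to 1853). Guca2a was at 3070 with them and 805 (440 to 1350) without them, against 1068 (905 to 1252), and Lypd8 at 3024 and 632 (316 to 1131), against 2283 (2041 to 2545). 2610528A11Rik had 0 UMIs in the 4 barcodes and was at 402 (162 to 829) in the other 37, against 878 (731 to 1046). The ratio of the genes was 5.00 in these 37 (2.19 to 13.3) and 1.97 in the absorptive precursors without 4 cells (1.49 to 2.63). These intervals overlap, and both ratios were lowered by a choice of cells that were high in 2200002D01Rik. The 21 absorptive precursors up to their median mitochondrial share held 109 UMIs of 2200002D01Rik and 83 of 2610528A11Rik. The 21 above it held 170 and 42, and the part of the mitochondrial share in the ratio was not tested. Gsdmc4 was lower in the 37 barcodes, at 115 (13.9 to 415) against 1637 (1433 to 1861), as was Aqp4, at 57.5 (1.45 to 320) against 695 (565 to 847). Lgals3 and Muc3 overlapped absorptive precursors with the 4 barcodes, at 870 (524 to 1359) against 1264 (1086 to 1463) and at 1054 (668 to 1581) against 1201 (1028 to 1395). Without the 4 barcodes both were lower, each with 7 UMIs at 402 (162 to 829). For these other genes no cells were left out of the absorptive precursors. Leaving out 4 barcodes high in 2200002D01Rik can therefore by itself lower the values of the 37.

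The barcode with the most UMIs of 2200002D01Rik outside the clusters held 34 of them among 1967 UMIs, with 28 of Guca2a, 10 of Lgals3, 24 of Pigr, 0 of Cd3g and 0 of 2610528A11Rik, at a mitochondrial share of 19.8%. The 69 barcodes with 2200002D01Rik had a median mitochondrial share of 51.7% and a median of 331 UMIs, and 44 held Pigr while 2 held Cd3g. The 532 without it had medians of 17.1% and 205 UMIs, and 148 held Pigr while 67 held Cd3g. The part of the mitochondrial share and of depth in these values was not tested.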

How the results depend on the processing

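Of 70 alternatives, 52 stayed within the interval of the main value or, for lists of like genes, within 1.5 times, 18 moved further and 0 reversed. The fold of 2610528A11Rik stayed within its interval in all alternatives tried. That of 2200002D01Rik became 12.6 when CPM was averaged over cells, 18.0 in barcode set X2 alone, 14.2 without 1 deep secretory precursor and 12.1 in set X1 without it. The ratio of the genes in absorptive precursors became 3.50 with that average. The share of absorptive precursors with 2610528A11Rik was 42.9% with at least 2 UMIs and 44.2% after thinning, and that with 2200002D01Rik was 60.9% after thinning. The first follows from the stricter cutoff, and thinning both lowers the UMIs per cell and leaves out 6 shallower cells.

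The co-detection ratio became 1.09 in absorptive precursors alone. The correlation of the genes became 0.351 after thinning, 0.204 in absorptive precursors alone, 0.231 in the other epithelial cells and 0.764 in barcode set X2 alone. Of the 10 genes most like 2610528A11Rik, 5 were kept after thinning, 5 in set X1 alone, 5 in cells that both lists call epithelial and 2 in absorptive precursors alone, so this list depends on these choices. Of the 10 most like 2200002D01Rik, 3 were kept in absorptive precursors alone and between 8 and 10 under the other alternatives. For values other than the first share, the cause was not tested. Of the alternatives, 9 were chosen after seeing the data, among them leaving out that secretory precursor, which gave 10.9 for 2610528A11Rik, and 11.4 in set X1. Without the 2 deepest absorptive precursors the folds were 8.15 and 8.20 and the ratio 2.63, and with joined barcodes co-detection was 1.66 and the correlation 0.596, all 5 within the intervals. No paired analysis was possible because both pools are of 1 group and barcodes cannot be assigned to a pool. The 42 absorptive precursors of 1 sample limit all values.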

Other observations

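The summed level of 2200002D01Rik in stem cells differed by barcode set, while the intervals of the share of cells overlapped. The level was 623 CPM (356 to 1011) in the 17 stem cells of X1 and 92.3 CPM (25.1 to 236) in the 15 of X2. A UMI was found in 8 of the 17 (47.1%, 23.0% to 72.2%) and in 2 of the 15 (13.3%, 1.66% to 40.5%). In X2, 1 stem cell held 23205 of the 43357 UMIs of the group and 3 of its 4 UMIs of the gene. For 2610528A11Rik the stem cells of the sets overlapped, at 77.9 CPM (9.43 to 281) and 115 CPM (37.4 to 269). The sets cannot be tied to a pool or a sort, and this difference has no replicate.

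Of the 9 UMIs of 2200002D01Rik in IELs outside the subclusters, 6 lay in 1 barcode of 795 UMIs that the list of all cells calls an iIEL, and it also held the only UMI of 2610528A11Rik in these IELs. It held 8 UMIs of Pigr, 2 of Epcam, 2 of Lgals3 and 1 of Krt8, and 0 of Cd3d, Cd3e, Cd3g, Ptprc and Cd7. Among barcodes in no cluster, 3 lie at 1 base from it, with 495, 464 and 255 UMIs and 3, 1 and 0 UMIs of 2200002D01Rik.

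Within absorptive precursors alone, the genes with the highest r with 2200002D01Rik were Lgals3 (0.598), Selenbp1 (0.570) and Guca2a (0.545), and 3 mitochondrially encoded genes were among the first 10, mt-Cytb (0.535), mt-Nd4 (0.524) and mt-Co1 (0.518). The first genes for 2610528A11Rik were Tmbim6 (0.535), an endoplasmic reticulum protein, Rps20 (0.524), of the ribosome, and Hint1 (0.502). Guca2a was not higher in absorptive precursors as a whole, with a fold of 1.19 (0.945 to 1.49).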
